A study of Mus musculus with 9 samples.

Results

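Lgr5- basal cells were compared with luminal cells of the mouse mammary gland, across all genes on a whole-genome bead array. The arrays were chosen by their titles: 3 titled as Lgr5- basal and 3 titled as luminal, which is 6 of the 9 arrays of the series, and the other 3 held Lgr5+ basal cells. All 9 came from C57BL/6 mice carrying the Lgr5-GFP-IRES-CreERT2 allele, virgin and 10 weeks old, so the allele is shared by every group and no wild-type gland was included. This allele puts green fluorescent protein and a tamoxifen-inducible Cre recombinase under the control of the Lgr5 locus. The cells were sorted by flow cytometry in 3 numbered pools, and each pool gave 1 array of each population. No source used here gives the sort markers, the gates or how many mice made a pool, and the pools are the replicates behind every p-value.

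The mammary epithelium is a bilayer. Basal cells lie against the basement membrane, are mostly myoepithelial, and contract in response to oxytocin to eject milk; luminal cells line the duct, are sealed by tight junctions, and include hormone-sensing cells and the progenitors of the secretory alveoli. The layers are known to signal to each other with Wnt, Notch, EGF-family and other ligands, and Lgr5 is a receptor for R-spondins, which strengthen Wnt signalling. In bulk samples such as these, fewer cells of a type and less RNA per cell cannot be told apart.

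Levels are normalized log2 intensities, so differences are log2 fold changes, and levels of different genes are not comparable because each probe binds with its own efficiency. Mean raw intensity was 437.7, 487.7 and 631.6 on Lgr5- basal arrays of pools 1, 2 and 3, against 428.1, 510.1 and 523.9 on luminal arrays, and 16223, 16057 and 17423 probes were detected in Lgr5- basal cells, against 15290, 15245 and 16302 in luminal cells, of 45281. Pools 1 and 2 lay on BeadChip 1 and pool 3 on BeadChip 2, each chip holding all 3 populations. Luminal array 2 stood apart from the other luminal arrays in genes of the basal layer: the median level of 24 contractile genes was 6.384, 8.352 and 6.396 on luminal arrays 1, 2 and 3, all below the 12.53, 12.60 and 12.63 of Lgr5- basal arrays 1, 2 and 3. Of the 184 genes at least 16-fold higher in Lgr5- basal cells, 152 had their highest luminal value on that array. Most list counts and some gene differences are therefore given with and without that array. Leaving it out made the fold change more than 1.5 times larger for 13 of 203 named genes that passed. Not all of them are given both ways. Fold sizes also depend on the background correction: without it, the fold change of 137 of 203 named genes that passed the test was more than 1.5 times smaller, with a median ratio of the log2 differences of 0.679, while their directions stayed as given here.

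The populations differed across much of the transcriptome. Of 12148 genes tested, 5430 (44.7%) had an adjusted p under 0.05 (limma fitted to all 9 arrays with no term for the pool, two-sided, Benjamini-Hochberg adjustment over all genes). Of these, 2668 (22% of the genes tested) were higher and 2762 (22.7%) lower in Lgr5- basal cells. In a fit with the pool as a block 5971 genes passed, 5394 of them among the 5430. Without luminal array 2, 5181 genes passed, including 4781 of the 5430. At least 2-fold changes that passed numbered 3228 (26.6%), 1678 higher and 1550 lower, and the strongest changes were more often increases: 766 genes were at least 4-fold higher against 542 lower, and 184 at least 16-fold higher against 100 lower. Probes were filtered and chosen over all 9 arrays, most of them basal, and the part of that choice in this excess was not tested. All 3 arrays of one group lay above the 3 of the other for 6717 genes (55.3%), and 5415 of the 5430 genes that passed had the same sign within each of the 3 pools. Every count of list members below stands beside these shares of all genes, 22% higher and 22.7% lower. The median log2 difference over all genes was -0.03, and the median size of the difference was 0.50. Array profiles correlated at r = 0.983 to 0.987 among Lgr5- basal arrays, 0.967 to 0.982 among luminal arrays and 0.799 to 0.83 between the groups, across genes, which are not independent replicates.

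**Figure D1:**
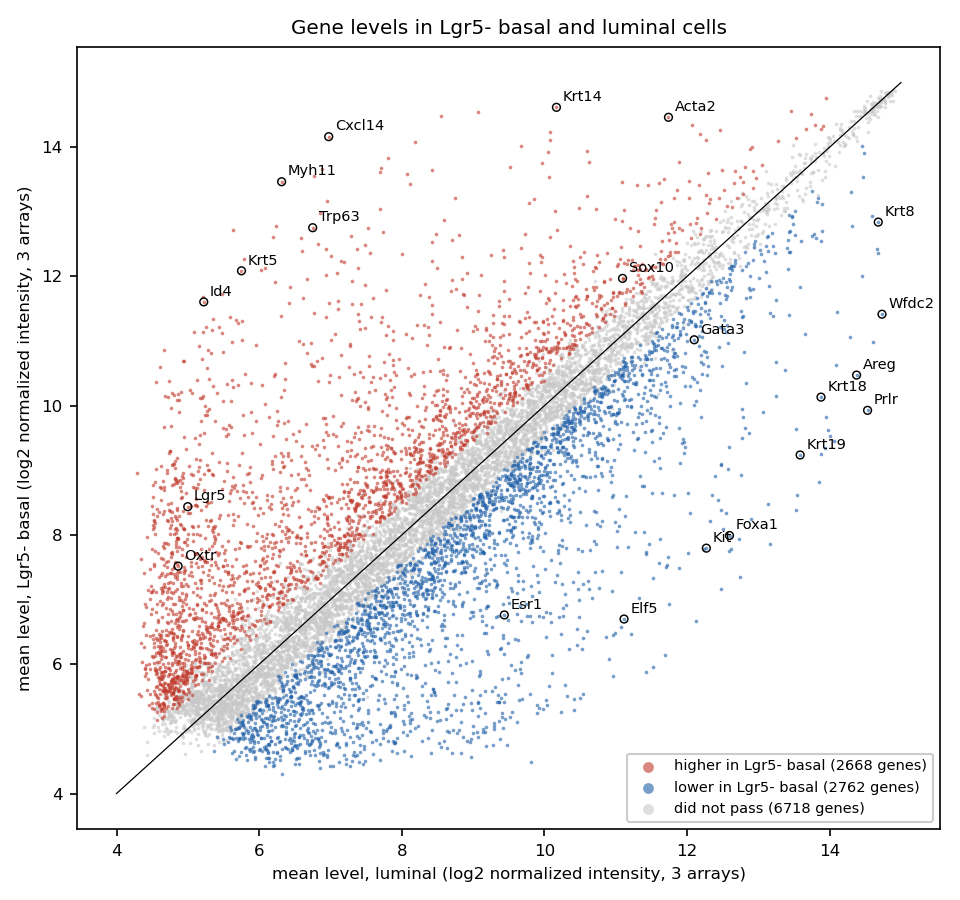
Mean normalized log2 intensity of every tested gene in Lgr5- basal cells (vertical axis) and in luminal cells (horizontal axis), each the mean of 3 arrays; colours mark genes that passed the test and labels mark named genes. The 2668 genes higher in Lgr5- basal cells lie above the diagonal and the 2762 lower genes below it.

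The marker genes of each layer followed the labels. Keratin 5 (Krt5), the defining filament protein of the basal layer, had levels of 12.07, 12.20 and 11.995 on Lgr5- basal arrays 1, 2 and 3, against 5.45, 6.95 and 4.86 on luminal arrays 1, 2 and 3. No value of one group came near the other, and the log2 difference was 6.33 ± 0.41 (± values after differences are standard errors), with an adjusted p of 4.87e-07 in limma. Its partner keratin 14 (Krt14) had levels of 14.71, 14.70 and 14.44 in Lgr5- basal cells, against 8.95, 12.10 and 9.46 in luminal cells, where array 2 was the high one. The Krt14 difference was 4.45 ± 0.63 (adjusted p = 0.000177 in limma), and 5.41 without luminal array 2. Trp63, which encodes the transcription factor p63 that maintains basal epithelia, had levels of 12.78, 12.75 and 12.73 in Lgr5- basal cells, against 5.93, 7.99 and 6.33 in luminal cells. That difference was 6.00 ± 0.42 (adjusted p = 7.83e-07 in limma). Krt14 reached 82.5% of the brightest signal on an array, where a bead array can compress differences.

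On the luminal side, keratin 8 (Krt8) had levels of 12.89, 12.88 and 12.75 in Lgr5- basal cells, against 14.70, 14.59 and 14.76 in luminal cells, a difference of -1.84 ± 0.14 (adjusted p = 1.60e-06 in limma). Krt8 was thus well detected in the basal cells too, and on luminal arrays it reached 89.0% of the brightest signal. Its partner keratin 18 (Krt18) had levels of 10.14, 10.16 and 10.09 in Lgr5- basal cells, against 13.97, 13.83 and 13.84 in luminal cells. The Krt18 difference was -3.75 ± 0.16, or 13.4-fold lower in Lgr5- basal cells (adjusted p = 5.22e-08 in limma). Keratin 19 (Krt19) was 20.4-fold lower and keratin 7 (Krt7) 25-fold lower, with no overlap between the groups in either.

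**Figure D2:**
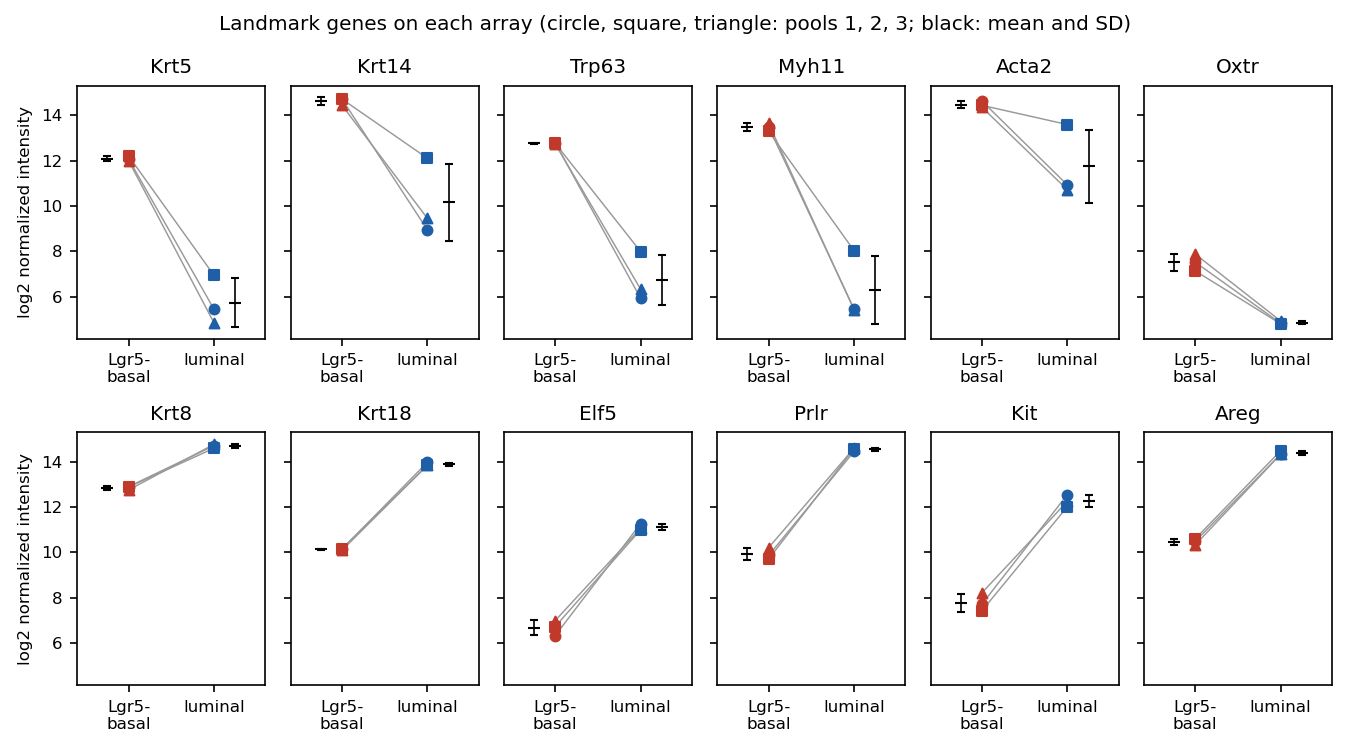
Normalized log2 intensity of landmark genes on each array, Lgr5- basal arrays (red, left of each pair) and luminal arrays (blue, right); each point is 1 array, with a shape for each pool, lines join arrays of a pool, and black marks give the mean and SD of 3 arrays. Basal genes such as Krt5 lie near 12 in Lgr5- basal cells and near 5 to 7 in luminal cells, and luminal genes such as Krt18 lie in the opposite order.

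Among the basal keratins and hemidesmosome genes, which build the filaments and the junctions that hold basal cells to the basement membrane, 13 of 17 tested members were higher and 1 lower in Lgr5- basal cells, with a median log2 difference of 1.84, and the counts were the same without luminal array 2. The hemidesmosomal collagen Col17a1 was 6.22 ± 0.57 higher, the cell adhesion protein P-cadherin (Cdh3) 5.84 ± 0.15 higher, and the laminin-332 chains Lama3 and Lamb3 4.75 ± 0.22 and 4.29 ± 0.15 higher. Cdh3 had levels of 11.12, 11.13 and 11.28 in Lgr5- basal cells, against 5.18, 5.44 and 5.39 in luminal cells. The integrin chain Itga6, commonly used to sort basal cells, differed by less, at 1.37 ± 0.34 (adjusted p = 0.00749 in limma), and its difference did not pass when all tested probes of a gene were averaged. No source used here says whether this sort used it. The member that was lower was Krt6a, at least 2.84-fold, a keratin known from a subset of mammary progenitors. Here and below, members that ran against their list, and other genes so marked, were named after their values were seen.

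The contractile apparatus of smooth muscle, which gives myoepithelial cells their name, moved almost as a whole. Of 24 tested members 23 were higher and 1 lower in Lgr5- basal cells, with a median log2 difference of 3.68; without luminal array 2 the counts were the same and the median was 3.64. Smooth muscle myosin heavy chain (Myh11) had levels of 13.48, 13.29 and 13.63 in Lgr5- basal cells, against 5.47, 8.04 and 5.44 in luminal cells. The difference of 7.15 ± 0.56 (142-fold, adjusted p = 1.95e-06 in limma) grew to 8.01 without luminal array 2. The regulatory myosin light chain Myl9 (6.79 ± 0.54), the smooth muscle actin Actg2 (6.77 ± 0.83) and the actin-binding protein transgelin (Tagln, 6.25 ± 0.34) stood in the same range. Actg2 showed the luminal spread most plainly, with levels of 13.71, 13.79 and 13.46 in Lgr5- basal cells, against 5.77, 9.49 and 5.40 in luminal cells. Further members that rose were the filament cross-linker Flna (4.10 ± 0.19), the leiomodin Lmod1, at least 11.4-fold, the smoothelin Smtn (3.85 ± 0.20) and the potassium channel subunit Kcnmb1, at least 9.82-fold. "At least" marks a gene whose probe was detected on no array of the lower group; the fold was then computed with that group's values raised to the lowest level at which probes were detected. Where only some arrays of the lower group detected the probe, the measured difference is given: 1 luminal array of 3 detected Krt5, Cdh3, Tagln, Id4, Snai2, Ecrg4, Moxd1, Ism1, Ednrb, Wif1, Wnt10a, Dll1, Fst, Bmp7, Ccne1 and Dusp2, and 2 detected Myh11, Igfbp3, Itga9 and Axin2. Likewise 1 Lgr5- basal array of 3 detected Cgn, Folr1 and Upk2, and 2 detected Cd24a, Cdc6, Cyp3a57, Ffar4, Foxc1, Msc and Piezo2.

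Alpha smooth muscle actin (Acta2) is the usual protein marker of the layer. Its levels were 14.62, 14.43 and 14.34 in Lgr5- basal cells, against 10.92, 13.58 and 10.71 in luminal cells, so that luminal array 2 lay close to the basal range. The difference was 2.72 ± 0.60 (adjusted p = 0.00348 in limma), and 3.64 without that array. Of the 5 tested probes for this gene, the brightest stood for it here, at 75.1% of the brightest signal on an array, and the others differed by 6.42, 6.14, 5.82 and 2.53, all higher in Lgr5- basal cells. The contractile member that was lower was the myotonic dystrophy kinase Dmpk (-1.61 ± 0.26).

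**Figure D3:**
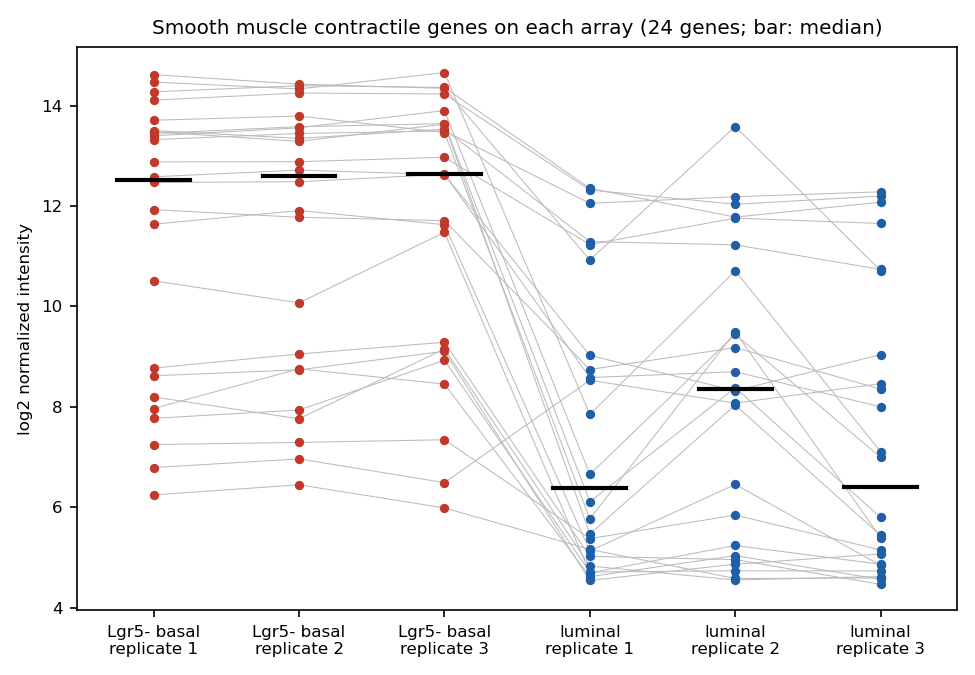
Normalized log2 intensity of the 24 tested contractile genes on each Lgr5- basal array (red, left) and each luminal array (blue, right); each point is 1 gene, lines join a gene across arrays, and black bars are medians. The medians lie between 12.53 and 12.63 on Lgr5- basal arrays and at 6.384, 8.352 and 6.396 on luminal arrays, array 2 being the highest of these.

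Genes that drive contraction, rather than carry it out, moved less as a group. Of 14 tested members 8 were higher and 1 lower, beside 22% and 22.7% of all genes, with a median of 1.04. Without luminal array 2, 7 were higher and 2 lower. With no detection filter 8 of 23 were higher and 1 lower, with a median of 0.311. The oxytocin receptor Oxtr had levels of 7.53, 7.15 and 7.88 in Lgr5- basal cells, against 4.84, 4.81 and 4.94 in luminal cells, where no array detected it. It was at least 3.98-fold higher (adjusted p = 4.88e-05 in limma). The cGMP-dependent kinase Prkg1 (4.33 ± 0.31), the endothelin receptor Ednrb (3.22 ± 0.24), the myosin phosphatase subunit Ppp1r12a (2.21 ± 0.24) and the serum response factor Srf (1.25 ± 0.18), which switches on contractile genes, were also higher. The kinases Rock1 and Rock2, chosen after their values were seen, differed by -0.19 and -0.25 and did not pass, and the calcium channel Orai1 was the lower member (-1.27 ± 0.22).

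Transcription factors of basal and mesenchymal cells were mostly higher: 16 of 21 tested members rose and 2 fell, with a median of 1.46, and 15 rose and 2 fell without luminal array 2. Id4, an inhibitor of basic helix-loop-helix factors that marks mammary basal cells, had levels of 11.34, 11.51 and 11.98 in Lgr5- basal cells, against 4.59, 6.34 and 4.73 in luminal cells. Snai2, which encodes the repressor Slug, had levels of 11.18, 10.98 and 11.26 in Lgr5- basal cells, against 4.75, 5.96 and 4.56 in luminal cells. The 2 genes differed by 6.38 ± 0.46 and 6.05 ± 0.34, with adjusted p of 9.77e-07 and 1.94e-07 in limma, and no luminal array reached the lowest basal one. The homeobox gene Irx4 was at least 33.7-fold higher and the zinc finger gene Bcl11b at least 9.48-fold, both undetected on every luminal array. Tead1, a partner of the YAP coactivator, differed by 2.86 ± 0.18, and Sox10, known from neural crest and from mammary progenitors, by only 0.87 ± 0.21, with means of 11.97 in Lgr5- basal cells and 11.10 in luminal cells. The members that fell were Meis1 (-0.57 ± 0.16) and Foxc1 (-2.03 ± 0.38).

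Basal cells face the basement membrane, and its components were almost all higher in them. Of 24 tested genes of basement membrane and matrix, 22 rose and 1 fell, with a median of 2.67, and the counts were the same without luminal array 2. Collagen IV chain Col4a2 (6.13 ± 0.30), the collagenase Mmp2 (6.00 ± 0.20), the matricellular protein Sparc (5.90 ± 0.31), the protease inhibitor Timp3 (4.35 ± 0.20) and perlecan (Hspg2, 4.28 ± 0.17) led the list. The member that fell was the laminin chain Lama5 (-0.82 ± 0.17). Of 24 tested integrin and focal adhesion genes 19 rose and 2 fell, with a median of 1.30, and without luminal array 2 these counts were 19 and 1. They were 19 and 2 of 27 with no detection filter, with a median of 0.874. Itga9 (4.79 ± 0.35), Itga1, at least 4.01-fold, the tensin Tns1, at least 6.93-fold, and the integrin-linked kinase Ilk (2.33 ± 0.18) were among those higher. Another tested probe of Itga9 differed by 0.636 and did not pass. The integrin chain Itgb1, another common sort marker, had levels of 7.56, 8.12 and 7.80 in Lgr5- basal cells, against 7.11, 7.20 and 6.74 in luminal cells, which is a difference of 0.81 ± 0.20 (adjusted p = 0.0069 in limma). Itgb6 (-1.33 ± 0.17), an epithelial integrin, and the focal adhesion kinase Ptk2 (-0.47 ± 0.16) fell.

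Clone and predicted identifiers apart, the chemokine gene Cxcl14 had the largest increase with all arrays in the fit. Its levels were 14.09, 14.15 and 14.25 in Lgr5- basal cells, against 6.35, 7.79 and 6.79 in luminal cells, a 146-fold difference (log2 7.19 ± 0.30, adjusted p = 4.57e-08 in limma). The others of the 12 largest increases were Myh11, Myl9, Actg2, Id4, Krt5 and Tagln, given above, and Ecrg4 (7.09 ± 0.45), which encodes a small secreted protein, the insulin-like growth factor binding protein Igfbp3 (6.54 ± 0.45), the monooxygenase-like gene Moxd1 (6.49 ± 0.60), the fibril-associated collagen Col14a1, at least 71.2-fold, and the secreted protein isthmin (Ism1, 6.41 ± 0.58). Without luminal array 2 the differences of Cxcl14, Ecrg4, Igfbp3, Moxd1 and Ism1 were 7.595, 7.72, 7.19, 7.40 and 7.31, below the 8.07 of Actg2 and the 8.01 of Myh11.

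**Figure D4:**
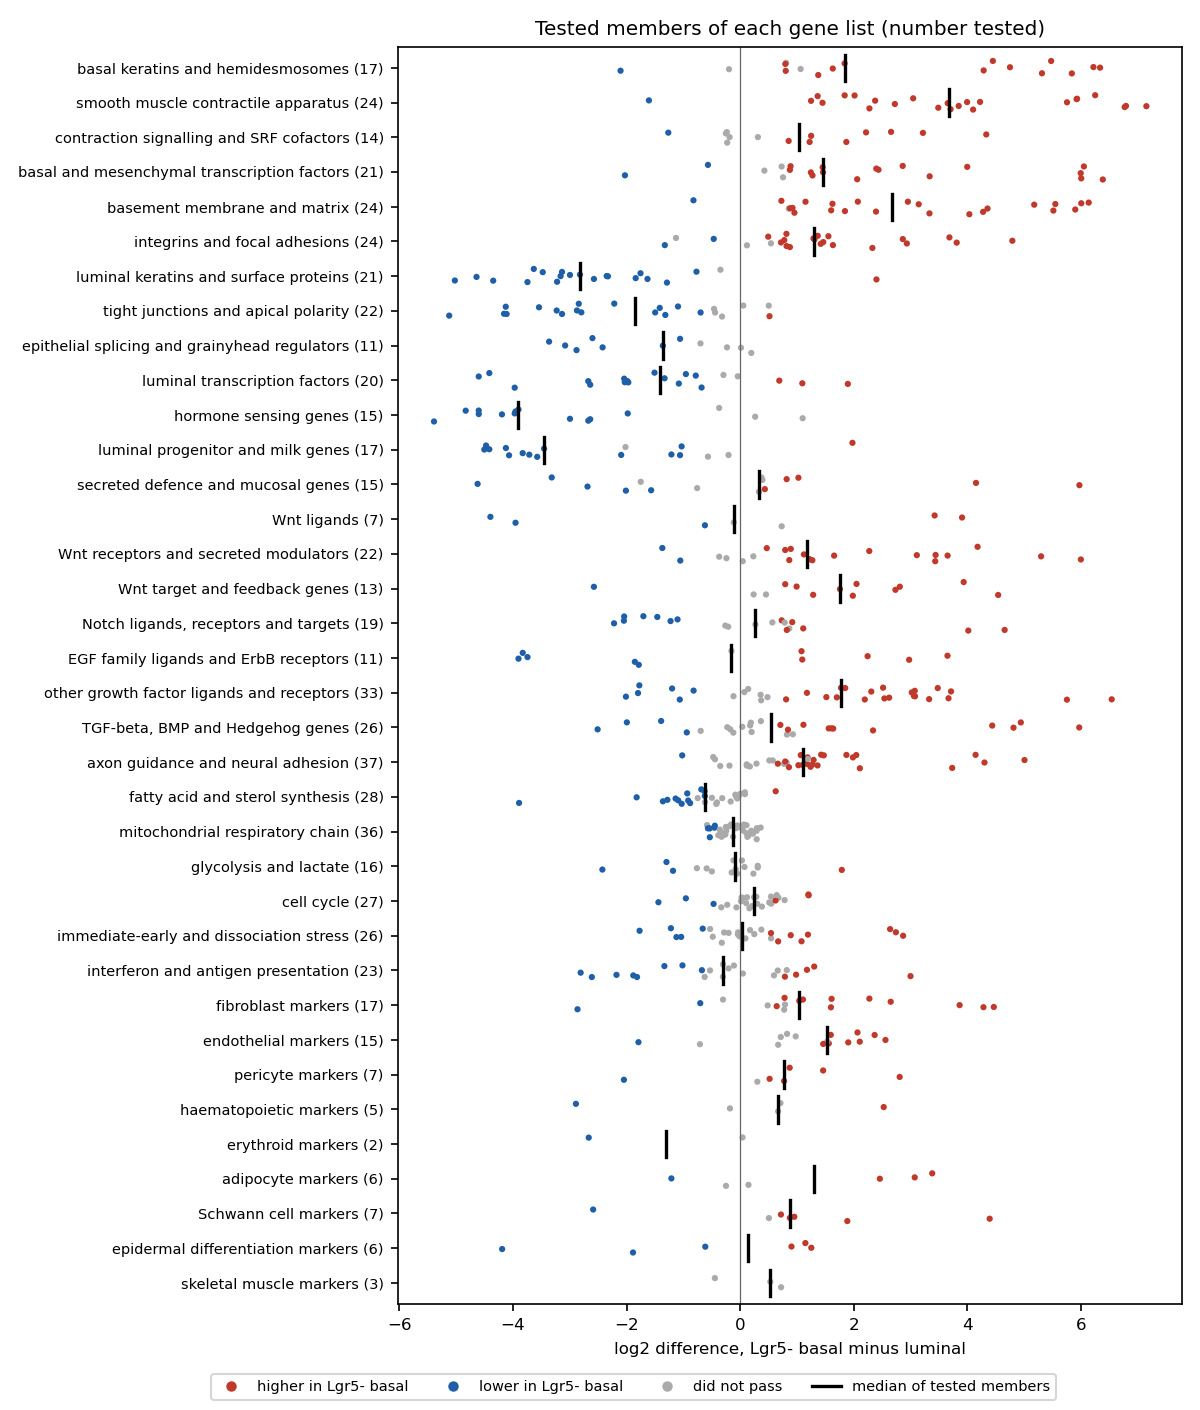
Log2 difference, Lgr5- basal minus luminal, of every tested member of each gene list; each point is 1 gene, coloured by whether it passed the test and in which direction, and the bar is the list's median. Contractile genes lie almost entirely to the right of 0 with a median of 3.68, and hormone sensing genes to the left with a median of -3.90.

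Luminal keratins and surface proteins showed the mirror image. Of 21 tested members 19 were lower and 1 higher in Lgr5- basal cells, with a median of -2.82, and the counts were the same without luminal array 2. Ly6d, a surface protein of luminal cells, had levels of 8.50, 8.93 and 9.04 in Lgr5- basal cells, against 13.80, 13.93 and 13.80 in luminal cells, which is 32.5-fold lower (log2 -5.02 ± 0.21, adjusted p = 4.85e-08 in limma). The protease inhibitor Spint1 (-3.16 ± 0.16) fell, and the stem and progenitor surface protein Prom1 was at least 4.29-fold lower. The sort antigens Epcam and Cd24a were dim on this array. Epcam had levels of 4.59, 4.56 and 4.91 in Lgr5- basal cells, against 6.15, 5.94 and 6.87 in luminal cells, and was at least 1.96-fold lower; Cd24a had levels of 4.69, 5.50 and 5.61 in Lgr5- basal cells, against 6.91, 7.50 and 9.12 in luminal cells, and differed by -2.58 ± 0.47 (adjusted p = 0.00113 in limma). The member that was higher was the type I keratin Krt23 (2.40 ± 0.31).

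Tight junction and apical polarity genes, which seal the duct lining, fell in 16 and rose in 1 of 22 tested members, with a median of -1.86; without luminal array 2, 15 fell and none rose. Cingulin (Cgn), a cytoplasmic plaque protein of the junction, had levels of 4.99, 5.19 and 5.69 in Lgr5- basal cells, against 10.13, 10.37 and 10.73 in luminal cells. It was 34.9-fold lower (log2 -5.12 ± 0.31, adjusted p = 3.08e-07 in limma). The claudins Cldn3 (-4.11 ± 0.22) and Cldn4 (-4.13 ± 0.25), which form the seal itself, the apical recycling GTPase Rab25 (-3.23 ± 0.18) and the motor Myo5c, at least 14.3-fold, were also lower. The scaffold Tjp1, chosen after its values were seen, differed by 0.05 and did not pass. The member that rose was Cldn12 (0.51 ± 0.17), and E-cadherin (Cdh1), also chosen after its values were seen, fell by 1.32 on the log2 scale.

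Regulators of epithelial splicing and of the grainyhead family, which maintain epithelial identity, fell in 7 of 11 tested members and rose in none, with a median of -1.36, with the same counts and a median of -1.75 without luminal array 2. When the detection filter was dropped, 7 of 14 fell and none rose, with a median of -0.879. Grhl1 (-3.37 ± 0.26), the splicing factors Esrp2 (-2.88 ± 0.28) and Rbm47 (-2.60 ± 0.24), the ETS factor Elf3 (-2.42 ± 0.24) and Spdef, at least 6.01-fold, were lower. Grhl2, chosen after its values were seen, differed by 0.01.

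The promoters of some of these luminal genes carry the letters CACCTG, or CAGGTG on the other strand, an E-box that repressors of the Snail and ZEB families are known to bind. Only windows that hold these letters are shown, and regulation of these genes by Snai2 was not tested. Each line gives the 250 bases before the gene's start, 5′ to 3′ on the gene's strand, from RefSeq on GRCm38.p6, with the E-box in capitals; the gene lies directly after each window.
Krt8, chr15:102004343-102004592, minus strand: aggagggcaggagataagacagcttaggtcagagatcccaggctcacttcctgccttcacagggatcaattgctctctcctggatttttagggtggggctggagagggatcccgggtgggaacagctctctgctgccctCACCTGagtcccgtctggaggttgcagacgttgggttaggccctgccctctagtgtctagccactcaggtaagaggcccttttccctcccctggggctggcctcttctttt
Krt18, chr15:102027966-102028215, plus strand: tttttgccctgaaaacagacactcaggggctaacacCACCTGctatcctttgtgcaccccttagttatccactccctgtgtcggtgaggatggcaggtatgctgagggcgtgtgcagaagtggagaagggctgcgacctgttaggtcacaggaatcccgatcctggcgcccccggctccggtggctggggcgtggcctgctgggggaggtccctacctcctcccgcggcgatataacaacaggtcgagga
Krt7, chr15:101412153-101412402, plus strand: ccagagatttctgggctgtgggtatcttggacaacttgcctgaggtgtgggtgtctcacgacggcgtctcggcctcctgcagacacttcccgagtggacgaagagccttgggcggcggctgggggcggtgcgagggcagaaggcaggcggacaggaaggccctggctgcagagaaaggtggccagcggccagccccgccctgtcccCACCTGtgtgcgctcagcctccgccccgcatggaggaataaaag
Cldn4, chr5:134946935-134947184, minus strand: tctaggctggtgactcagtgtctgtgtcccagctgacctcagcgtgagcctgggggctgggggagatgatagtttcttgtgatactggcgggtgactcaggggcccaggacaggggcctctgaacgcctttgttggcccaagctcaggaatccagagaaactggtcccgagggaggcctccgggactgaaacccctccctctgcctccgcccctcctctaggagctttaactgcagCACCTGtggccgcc
Epcam, chr17:87635729-87635978, plus strand: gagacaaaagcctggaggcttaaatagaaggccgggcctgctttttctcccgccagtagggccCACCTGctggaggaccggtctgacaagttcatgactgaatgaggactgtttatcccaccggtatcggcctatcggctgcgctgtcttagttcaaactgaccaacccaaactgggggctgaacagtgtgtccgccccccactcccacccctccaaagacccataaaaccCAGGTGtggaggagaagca
Krt5, chr15:101712906-101713155, minus strand: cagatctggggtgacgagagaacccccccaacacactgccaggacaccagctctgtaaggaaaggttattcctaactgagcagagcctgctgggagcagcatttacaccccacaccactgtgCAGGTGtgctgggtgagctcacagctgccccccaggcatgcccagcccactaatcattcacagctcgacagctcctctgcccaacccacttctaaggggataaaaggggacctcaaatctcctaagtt
The last is the basal keratin Krt5, which holds the same letters. Of 15 luminal keratin and surface genes with a promoter in the table, 10 (66.7%) held this E-box on either strand, as did 10 of 19 tight junction genes (52.6%), 4 of 6 basal keratin and hemidesmosome genes (66.7%), 4 of 22 contractile genes (18.2%) and 5252 of all 27025 genes (19.4%). It was also in 2 of 7 epithelial splicing and grainyhead genes (28.6%) and 2 of 16 basement membrane and matrix genes (12.5%). A grainyhead motif, searched in the same windows, was in 540 of all 27025 genes (2%). It was in 2 of 15 luminal keratin and surface genes, 2 of 19 tight junction genes and 1 of 6 basal keratin and hemidesmosome genes. No gene of the other lists held it. The part of base composition in these shares was not tested. These matches describe the letters in the window and do not show binding.

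Contractile genes are known targets of serum response factor, which binds the CArG box. In the same window it was found in 2 of 22 contractile genes (9.09%), Myl9 and Vcl, against 439 of all 27025 genes (1.62%). It was also found in 1 of 19 tight junction genes (5.26%), Cldn12, chosen after its values were seen, and in none of the other 4 lists searched; counted over windows, since a gene can have several starts, it was in 11.1% of tight junction windows and 8.33% of contractile ones. The Myl9 window is shown as the member with one of the largest differences, with the CArG box in capitals.
Myl9, chr2:156775214-156775463, plus strand: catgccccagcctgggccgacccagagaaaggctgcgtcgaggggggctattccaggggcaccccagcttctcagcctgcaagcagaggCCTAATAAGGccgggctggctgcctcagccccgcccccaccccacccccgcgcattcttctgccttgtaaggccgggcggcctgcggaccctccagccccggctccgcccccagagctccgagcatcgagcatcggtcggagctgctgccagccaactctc
Vcl, chosen after its values were seen, rose by 1.36.

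Luminal transcription factors fell in 15 and rose in 3 of 20 tested members, with a median of -1.42 and the same counts without luminal array 2. Elf5, which directs the alveolar lineage, had levels of 6.35, 6.74 and 7.01 in Lgr5- basal cells, against 11.27, 11.01 and 11.07 in luminal cells. Foxa1, a pioneer factor of hormone-responsive cells, had levels of 8.04, 7.83 and 8.11 in Lgr5- basal cells, against 12.48, 12.20 and 13.10 in luminal cells. The differences were -4.42 ± 0.25 and -4.60 ± 0.37, with adjusted p of 1.83e-07 and 2.34e-06 in limma, and the groups did not overlap for either gene. Cited1 (-3.97 ± 0.25), Hey1 (-2.04 ± 0.17) and Xbp1 (-2.03 ± 0.17) also fell. Gata3, a regulator of luminal fate, differed by much less: its levels were 10.84, 10.82 and 11.40 in Lgr5- basal cells, against 12.01, 11.80 and 12.49 in luminal cells, and the difference was -1.08 ± 0.25 (adjusted p = 0.00522 in limma). The members that rose were Tfap2c (1.89 ± 0.24), Cebpb (1.09 ± 0.20) and Nfia (0.69 ± 0.19).

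Genes of hormone sensing cells fell in 12 of 15 tested members and rose in none, with the lowest median of these groups, -3.90; the counts were the same without luminal array 2, and with the pool as a block Greb1, an oestrogen target, passed as higher (1.10 ± 0.43, adjusted p = 0.0628 in limma without the block and 0.0112 with it). The prolactin receptor Prlr had levels of 9.87, 9.71 and 10.21 in Lgr5- basal cells, against 14.44, 14.57 and 14.59 in luminal cells, a 24.3-fold decrease (adjusted p = 2.59e-07 in limma). The oestrogen receptor Esr1 had levels of 6.98, 6.05 and 7.25 in Lgr5- basal cells, against 8.96, 9.08 and 10.27 in luminal cells. The progesterone receptor Pgr had levels of 5.72, 6.17 and 5.77 in Lgr5- basal cells, against 8.49, 8.48 and 8.63 in luminal cells. The receptors differed by -4.60 ± 0.27, -2.68 ± 0.39 and -2.64 ± 0.24 in that order, and each luminal array lay above each basal one. The sodium pump regulator Fxyd2 (-4.83 ± 0.27) and the chemokine Cxcl15 (-5.39 ± 0.27) fell too.

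Luminal progenitor and milk genes fell in 13 and rose in 1 of 17 tested members, with a median of -3.45. The counts were the same without luminal array 2, and without luminal array 1 the median was -2.30. With no detection filter 13 of 22 fell and 1 rose, with a median of -1.616. The stem cell factor receptor Kit, a marker of luminal progenitors, had levels of 7.73, 7.44 and 8.22 in Lgr5- basal cells, against 12.55, 12.02 and 12.25 in luminal cells. It was 22.2-fold lower (log2 -4.47 ± 0.29, adjusted p = 4.74e-07 in limma). Butyrophilin (Btn1a1, -4.51 ± 0.26), which coats milk fat droplets, the lipopolysaccharide coreceptor Cd14 (-4.07 ± 0.24), the folate receptor Folr1 (-3.83 ± 0.24) and the tetraspanin Tspan1, at least 9.96-fold, were lower. The member that rose was Glycam1 (1.98 ± 0.43), which encodes a mucin-like glycoprotein of milk and of lymph node endothelium.

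Among the 12 largest decreases of genes with established names, Cxcl15, Cgn and Ly6d are given above. Rasgrf1, an exchange factor for Ras, had levels of 6.05, 6.18 and 6.17 in Lgr5- basal cells, against 11.65, 11.66 and 11.79 in luminal cells, 47.2-fold lower (adjusted p = 2.07e-08 in limma). Haptoglobin (Hp, -5.56 ± 0.31), the cytochrome P450 gene Cyp3a57 (-5.55 ± 0.24), the mucin Muc13 (-5.45 ± 0.33), the mucosal protein Dmbt1 (-5.30 ± 0.54) and the fatty acid receptor Ffar4 (-5.13 ± 0.31) followed, with the transcription factor Msc (-5.01 ± 0.14), the uroplakin Upk2 (-5.01 ± 0.20) and the mechanically gated channel Piezo2 (-4.96 ± 0.25). Piezo2 had levels of 5.53, 4.97 and 5.29 in Lgr5- basal cells, against 10.29, 9.72 and 10.67 in luminal cells, so that its lowest luminal array lay more than 4 units above its highest basal one.

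Secreted defence and mucosal genes were higher in 5 and lower in 5 of 15 tested members, 33.3% each way beside 22% and 22.7% of all genes, with a median of 0.33. The counts were 4 and 5 without luminal array 2 and 5 and 7 with the pool as a block, and only 3 were higher without Lgr5- basal array 1, without Lgr5- basal array 3 or without luminal array 3. They were 4 and 5 of 23 with no detection filter. The protease inhibitor Slpi had levels of 13.49, 13.59 and 13.97 in Lgr5- basal cells, against 7.01, 9.02 and 7.10 in luminal cells, and the chitinase-like gene Chil1 had 14.05, 14.05 and 14.60 in Lgr5- basal cells, against 10.19, 9.85 and 10.21 in luminal cells. Both rose, by 5.97 ± 0.44 and 4.15 ± 0.19 (adjusted p = 1.16e-06 and 6.88e-08 in limma). Lactoferrin (Ltf), an iron-binding antibacterial protein, had levels of 9.25, 9.09 and 9.42 in Lgr5- basal cells, against 13.79, 14.24 and 13.60 in luminal cells, and Wfdc2 had 11.10, 11.51 and 11.65 in Lgr5- basal cells, against 14.73, 14.67 and 14.80 in luminal cells. Both fell, by 4.62 ± 0.44 and 3.32 ± 0.20 on the log2 scale (adjusted p = 8.46e-06 and 3.46e-07 in limma). The mucin Muc20 was at least 3.94-fold lower.

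Of 7 tested Wnt ligands 2 (28.6%) were higher and 3 (42.9%) lower, beside 22% and 22.7% of all genes. The counts were the same without luminal array 2. They were 2 and 3 of 19 with no detection filter, beside 2533 and 2780 of all 28894 genes. On probes that the authors did not set aside, 1 of 7 was higher and 3 lower. Wnt10a had levels of 9.15, 9.21 and 8.49 in Lgr5- basal cells, against 4.82, 5.68 and 4.63 in luminal cells. Wnt6 had 8.62, 8.65 and 7.63 in Lgr5- basal cells, against 4.58, 5.05 and 5.01 in luminal cells, where it was not detected. Wnt10a differed by 3.91 ± 0.30 (adjusted p = 1.86e-06 in limma), and Wnt6 was at least 6.84-fold higher. In the other direction, Wnt4, the mediator of progesterone in the gland, had levels of 5.56, 5.94 and 5.54 in Lgr5- basal cells, against 9.77, 9.13 and 10.01 in luminal cells. Wnt7b had 5.65, 5.69 and 5.66 in Lgr5- basal cells, against 9.84, 10.39 and 9.97 in luminal cells. The differences were -3.96 ± 0.32 and -4.40 ± 0.20 (adjusted p = 2.57e-06 and 6.87e-08 in limma), and Wnt5b fell by 0.62 ± 0.20. The call of Wnt5b was lost without Lgr5- basal array 1 or 3 and without luminal array 1 or 3 (adjusted p = 0.0671 to 0.113 in limma), with median centring and on BeadChip 1 alone.

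Receptors and secreted modulators of Wnt signalling lay mainly on the basal side. Of 22 tested, 16 were higher and 2 lower, beside 22% and 22.7% of all genes, with a median of 1.17 (13 and 2 without luminal array 2). With no detection filter 15 of 35 were higher and 2 lower, with a median of 0.324. Lgr5 itself, which gave the sort its name, had levels of 8.24, 8.14 and 8.94 in Lgr5- basal cells, against 4.72, 5.13 and 5.15 in luminal cells, where no array detected it, so that cells sorted as Lgr5- were at least 7.53-fold above the luminal cells (adjusted p = 3.04e-06 in limma). The secreted inhibitor Wif1 had levels of 11.29, 11.14 and 11.61 in Lgr5- basal cells, against 4.78, 5.96 and 5.31 in luminal cells, which is a 63.9-fold increase. The inhibitor Dkk3 (5.30 ± 0.29), the antagonist Sfrp1, at least 9.93-fold, the receptor Fzd3, at least 7.17-fold, and the R-spondin receptor Lgr6 (2.27 ± 0.15) were higher as well. The members that were lower were Ror2 (-1.06 ± 0.18) and Fzd10 (-1.37 ± 0.20). Lgr4 and Procr were not tested.

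Of 13 tested Wnt targets and feedback genes 10 were higher and 1 lower, beside 22% and 22.7% of all genes, with a median of 1.76 (9 and 1 without luminal array 2). With no detection filter 9 of 19 were higher and 1 lower, with a median of 0.792. Axin2, a feedback inhibitor often used to report Wnt signalling, had levels of 8.69, 8.60 and 8.45 in Lgr5- basal cells, against 6.72, 5.73 and 5.10 in luminal cells. It differed by 2.73 ± 0.33 (adjusted p = 4.94e-05 in limma), with luminal array 1 nearest to the basal range. The feedback inhibitors Nkd1 and Nkd2 were at least 13.6-fold and 13.4-fold higher, the transcription factor Tcf7 at least 3.96-fold and Apcdd1 at least 2.22-fold. The member that was lower was cyclin D1 (Ccnd1), with levels of 10.71, 10.49 and 10.82 in Lgr5- basal cells, against 13.37, 13.09 and 13.29 in luminal cells, a difference of -2.58 ± 0.19.

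Of 19 tested Notch genes 6 (31.6%) were higher and 7 (36.8%) lower, beside 22% and 22.7% of all genes. The counts were 4 and 7 without luminal array 2, and 3 and 7 without Lgr5- basal array 2. They were 5 and 7 of 27 with no detection filter. The ligand Dll1 had levels of 10.07, 9.84 and 9.92 in Lgr5- basal cells, against 5.06, 6.10 and 4.73 in luminal cells, a 25.2-fold increase (adjusted p = 6.39e-07 in limma). Jag2, another ligand, was at least 10-fold higher, while Jag1 did not pass (0.86 ± 0.39, adjusted p = 0.0939 in limma, and 0.0223 with the pool as a block), and passed without luminal array 3 (0.00127). The receptor Notch1 had levels of 8.06, 8.07 and 8.18 in Lgr5- basal cells, against 9.21, 9.77 and 9.71 in luminal cells. Notch3 had 7.55, 7.32 and 7.41 in Lgr5- basal cells, against 9.64, 9.14 and 9.64 in luminal cells. These receptors differed by -1.46 ± 0.18 and -2.05 ± 0.24, and the targets Hes1 and Hey1 by -1.71 ± 0.18 and -2.04 ± 0.17, all lower in Lgr5- basal cells, while the receptor Notch4, chosen after its values were seen, was higher (0.73 ± 0.27).

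Among the EGF family 5 of 11 tested members were higher and 5 lower (5 and 4 without luminal array 2), or 45.5% each way beside 22% and 22.7% of all genes. The counts were 5 and 5 of 17 with no detection filter. The receptor Egfr had levels of 10.78, 10.94 and 10.97 in Lgr5- basal cells, against 8.61, 9.06 and 8.30 in luminal cells, a difference of 2.24 ± 0.20 (adjusted p = 5.22e-06 in limma). Areg, the oestrogen-induced ligand that binds it, had levels of 10.49, 10.60 and 10.33 in Lgr5- basal cells, against 14.33, 14.48 and 14.33 in luminal cells. Areg was 15-fold lower, and the ligands Btc and Nrg4 at least 11-fold and 9.06-fold lower. The ErbB3 ligand neuregulin 1 (Nrg1) ran the other way, with levels of 8.23, 7.57 and 7.62 in Lgr5- basal cells, against 4.86, 4.85 and 4.79 in luminal cells, at least 4.87-fold higher. The ErbB regulator Lrig3 rose (3.65 ± 0.21), and Erbb3 was not tested.

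**Figure D5:**
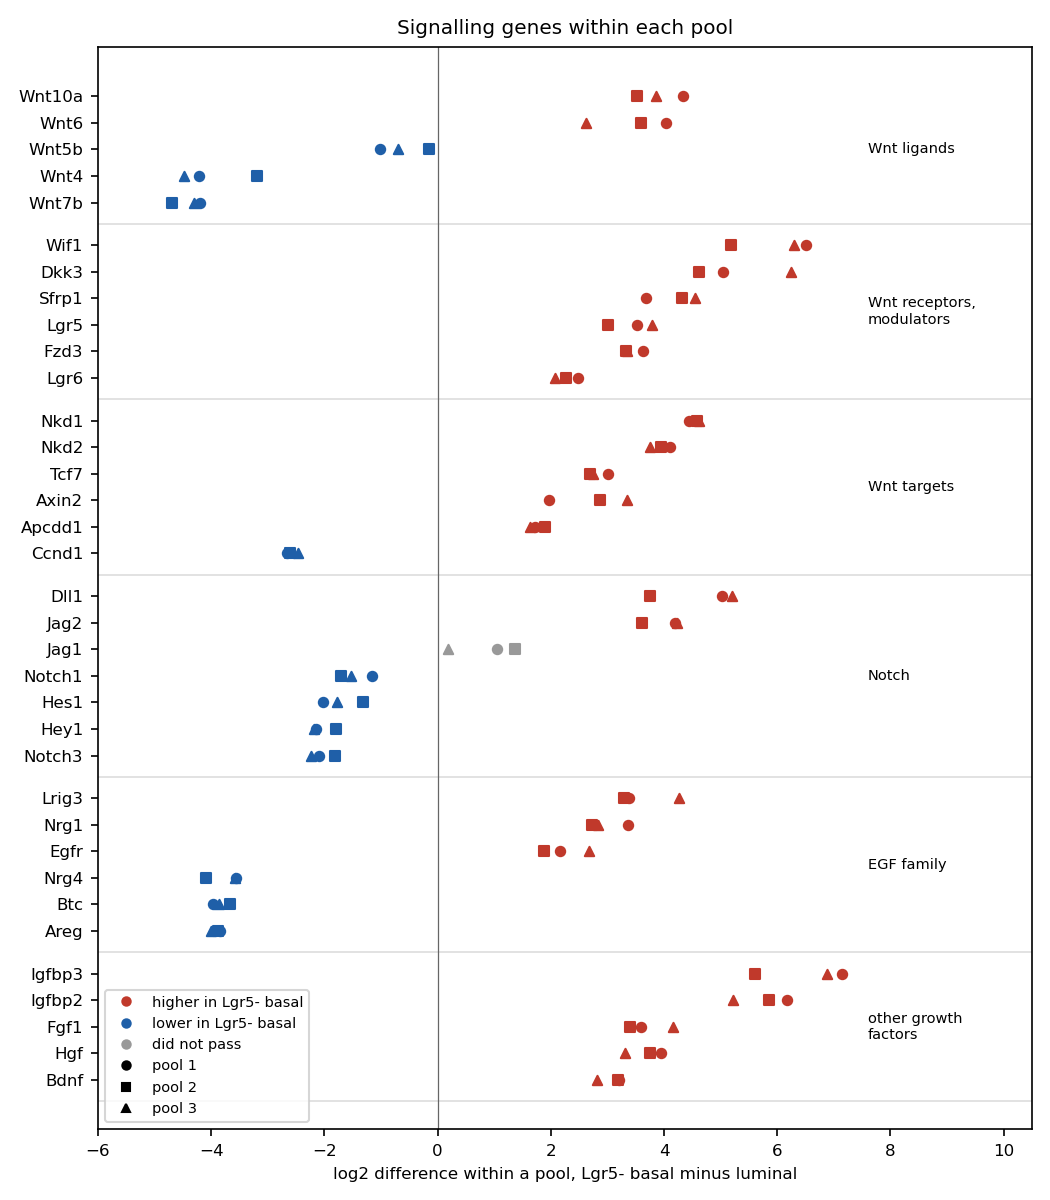
Signalling genes by group, with the log2 difference of Lgr5- basal minus luminal cells within each pool on the horizontal axis; each point is 1 pool, red for genes that passed as higher, blue for lower and grey for neither. All 3 pools lie to the right of 0 for Wnt10a, Dll1, Nrg1 and Egfr and to the left for Wnt4, Wnt7b, Notch3, Btc and Areg.

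Other growth factors and their receptors were higher in 21 and lower in 6 of 33 tested members, beside 22% and 22.7% of all genes, with a median of 1.77. The counts were the same without luminal array 2. With no detection filter 22 of 42 were higher and 6 lower, with a median of 0.696. Igfbp2 was at least 36-fold higher, with levels of 10.74, 11.08 and 10.27 in Lgr5- basal cells, against 4.56, 5.22 and 5.05 in luminal cells. Fgf1 (3.71 ± 0.26), the hepatocyte growth factor Hgf, at least 8.32-fold, and the neurotrophin Bdnf (3.07 ± 0.16) were higher. Met, the receptor of Hgf, chosen after its values were seen, ran the other way, at least 2.15-fold lower.

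TGF-beta, BMP and Hedgehog genes were higher in 11 (42.3%) and lower in 4 (15.4%) of 26 tested members, beside 22% and 22.7% of all genes. Without luminal array 2 the counts were 11 and 6, and with no detection filter 11 and 4 of 39. Follistatin (Fst), which traps activins, had levels of 11.45, 11.04 and 11.17 in Lgr5- basal cells, against 5.14, 5.74 and 4.87 in luminal cells, 62.6-fold higher (adjusted p = 3.70e-08 in limma). Bmp7 (4.94 ± 0.23), betaglycan (Tgfbr3, 4.81 ± 0.22), the latent TGF-beta binding protein Ltbp4 (4.44 ± 0.22) and the receptor Tgfbr1 (2.34 ± 0.16) were higher. Of 37 tested axon guidance and neural adhesion genes 23 were higher and 1 lower, with a median of 1.10 (21 and 2 without luminal array 2). The counts were 21 and 1 of 46 with no detection filter, with a median of 0.804. The repellent Slit2 was at least 17.6-fold higher and was detected on no luminal array, the semaphorins Sema6d and Sema3b were at least 11.2-fold and 7.87-fold higher, Sema5a differed by 4.14 ± 0.23, and the member that was lower was Sema4d, at least 1.43-fold.

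Few genes of the respiratory chain, the cell cycle or glycolysis passed, beside 22% higher and 22.7% lower among all genes. Of 36 tested respiratory chain genes none were higher and 5 lower, with a median of -0.13. The count lower was 8 with the pool as a block and 1 to 4 with 1 array left out. It was 0 with median centring and 0 on BeadChip 1 alone. The 5 were Cox5a (-0.57 ± 0.20), Cox7a2 (-0.54 ± 0.17), Ndufa4 (-0.54 ± 0.15), Ndufv1 (-0.45 ± 0.17) and Atp5j (-0.45 ± 0.16). These small differences passed or failed with the setting: Ndufv1 did not pass without luminal array 2, and Atp5j differed by 0.016 when all its tested probes were averaged. The tested probes of Atp5j disagreed in direction, at -0.45 and 0.48. Of 27 tested cell cycle genes 3 were higher and 3 lower, with a median of 0.24, and 6 were higher with the pool as a block. The cyclins Ccne1 (1.20 ± 0.32) and Ccnb1 (1.20 ± 0.31) and the motor Kif11 (0.62 ± 0.22) were higher, and the kinase Aurka (-1.44 ± 0.24), the licensing factor Cdc6 (-0.96 ± 0.26) and Mcm2 (-0.47 ± 0.17), the last chosen after its values were seen, were lower. Kif11 did not pass without luminal array 2 or 3, Lgr5- basal array 1 or 2, or Lgr5+ basal array 2 (adjusted p = 0.05355 to 0.127 in limma). Glycolysis genes were higher in 1 and lower in 3 of 16 tested members (1 and 6 without luminal array 2): Pfkp (1.79 ± 0.21) against Aldoc (-2.43 ± 0.22), Tpi1 (-1.30 ± 0.15) and Pdk1 (-1.18 ± 0.17). Pgk1 (-0.50 ± 0.19) did not pass (adjusted p = 0.0527 in limma), and passed with the pool as a block (0.0371), without luminal array 2 (0.0139) and in other alternatives.

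Fatty acid and sterol synthesis genes fell in 13 of 28 tested members and rose in 1, beside 22.7% lower and 22% higher among all genes. The median was -0.62, and the counts stayed the same without luminal array 2. Diacylglycerol acyltransferase 2 (Dgat2), which makes triglyceride, fell most (-3.89 ± 0.26), and the desaturase Scd1 (-1.36 ± 0.15), Fdps (-1.14 ± 0.17) and Acss2 (-0.88 ± 0.17) fell too. The member that rose was the elongase Elovl5 (0.62 ± 0.16).

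Immediate-early and stress genes, which respond to tissue dissociation, were higher in 8 (30.8%) and lower in 5 (19.2%) of 26 tested members, with a median of 0.04. All genes had 22% higher and 22.7% lower. Without luminal array 2 the counts were 8 and 7. Egr3 (2.87 ± 0.42), Dusp2 (2.74 ± 0.31) and Gadd45b (2.64 ± 0.16) were higher, and Gadd45a (-1.77 ± 0.16) and Jun (-1.04 ± 0.16) lower; Fos and Egr1, chosen after their values were seen, differed by -0.02 and -0.04. Interferon and antigen presentation genes were higher in 5 (21.7%) and lower in 8 (34.8%) of 23, beside 22% and 22.7% of all genes (4 and 9 without luminal array 2, and 3 and 8 without Lgr5- basal array 1). The invariant chain Cd74, a part of MHC class II processing, was higher (3.00 ± 0.42), and the deubiquitinase Usp18 (-2.81 ± 0.21), the peptide transporter Tap2 (-2.61 ± 0.25) and the immunoproteasome subunits Psmb8 (-1.88 ± 0.19) and Psmb9 (-1.82 ± 0.26) were lower.

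Markers of other cell types of the gland were measured beside these results, since a sort can carry such cells. Of 17 tested fibroblast markers 11 were higher and 2 lower, beside 22% and 22.7% of all genes, with a median of 1.04 (10 and 1 without luminal array 2). Their summed background-corrected intensity was 14378 to 15475 in Lgr5- basal cells, against 4269 to 6509 in luminal cells, and 15 or 16 of 18 members were detected on Lgr5- basal arrays, against 9 to 12 on luminal arrays. Dcn (2.65 ± 0.17), Fbn1 (4.28 ± 0.25) and Col6a1 (3.86 ± 0.18) were higher, Col6a3 was lower (-2.87 ± 0.23), and the defining collagen Col1a1, chosen after its values were seen, had means of 6.63 in Lgr5- basal cells and 5.86 in luminal cells and did not pass. Of 15 tested endothelial markers 8 were higher and 1 lower, beside the same shares of all genes, with a median of 1.53 (10 and 2 without luminal array 2). Their summed intensity was 4595 to 5933 in Lgr5- basal cells, against 1793 to 3120 in luminal cells, the highest luminal value being that of array 2, and 15 of 18 members were detected on each Lgr5- basal array, against 12 to 14 on luminal arrays. Plvap had levels of 10.74, 10.55 and 10.13 in Lgr5- basal cells, against 7.96, 8.62 and 7.18 in luminal cells (2.56 ± 0.55, adjusted p = 0.00328 in limma), Sox18 was at least 3.63-fold higher, Flt1, Esam and Robo4 differed by 2.10 ± 0.44, 2.06 ± 0.55 and 1.90 ± 0.52, and the defining Pecam1, chosen after its values were seen, had means of 7.55 and 6.57 in that order and did not pass. The part of fibroblasts and endothelial cells in the differences above was not tested.

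Other lists were smaller, and their counts stand beside 22% higher and 22.7% lower among all genes. Pericyte markers were higher in 5 and lower in 1 of 7 tested (a summed intensity of 800.7 to 979.7 in Lgr5- basal cells, against 702.3 to 914.8 in luminal cells), with Mcam 2.81 ± 0.20 higher and Notch3 lower; the defining Rgs5, chosen after its values were seen, was detected on 1 array of each group. Schwann cell markers were higher in 5 and lower in 1 of 7 (7138 to 7315 in Lgr5- basal cells, against 2295 to 3539 in luminal cells), led by Pmp22 (4.39 ± 0.21), while Mbp was lower (-2.59 ± 0.23), its probes disagreeing in direction. Adipocyte markers were higher in 3 and lower in 1 of 6 (645.6 to 1095 in Lgr5- basal cells, against 182.4 to 211.5 in luminal cells), and the defining Adipoq, Plin1 and Fabp4 were not tested. Haematopoietic markers were higher in 1 and lower in 1 of 5 (298.9 to 352.4 in Lgr5- basal cells, against 334.7 to 429.4 in luminal cells); Cd3e was at least 3.59-fold higher, Lcp1 at least 6.73-fold lower, and Ptprc, Csf1r and Itgam were not tested, since they were detected on too few arrays. Of 2 erythroid markers, Hba-a1 had levels of 6.64, 7.23 and 5.58 in Lgr5- basal cells, against 8.68, 10.18 and 8.59 in luminal cells, with array 2 the highest, and its difference (-2.67 ± 0.85) did not pass without that array or without Lgr5- basal array 1 or 3; Hbb-b1 differed by 0.04 ± 0.77. Epidermal differentiation markers were higher in 3 and lower in 3 of 6, with Sprr1a at least 13.2-fold lower and Krt10 0.90 ± 0.28 higher, a call lost without Lgr5- basal array 2 or 3 and without luminal array 1 or 3 (adjusted p = 0.05853 to 0.0962 in limma), at summed intensities of 1039 to 1668 in Lgr5- basal cells, against 1240 to 1532 in luminal cells. Of 3 skeletal muscle markers none passed; Mb (-0.45 ± 0.17) passed in some alternatives, with the pool as a block at an adjusted p of 0.0358 in limma (243.7 to 355.8 in Lgr5- basal cells, against 311.8 to 357.0 in luminal cells). Without luminal array 2 the counts higher and lower were 5 and 1 for pericyte, 4 and 1 for Schwann cell, 3 and 1 for adipocyte, 2 and 1 for haematopoietic and 3 and 2 for epidermal markers, and 3 pericyte markers were higher without Lgr5- basal array 1 or 3 or luminal array 3. The part of these cells in the results was not tested.

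Lgr5+ basal cells, from the same pools, place these differences beside the variation within the basal layer. Between Lgr5- and Lgr5+ basal cells 128 genes (1.05%) passed the same test, against the 5430 between Lgr5- basal and luminal cells, each with 3 arrays a group. The 128 became 52 to 604 with 1 array left out, the 604 without Lgr5+ basal array 3. The summed intensity of the endothelial markers was 5933, 5519 and 4595 on Lgr5- basal arrays and 4027, 10503 and 2154 on Lgr5+ basal arrays, and its part in these counts was not tested. Krt5 had a mean of 12.09 in Lgr5- basal cells, 12.22 in Lgr5+ basal cells and 5.75 in luminal cells. Lgr5 had means of 8.44 in Lgr5- basal cells, 10.09 in Lgr5+ basal cells and 4.999 in luminal cells, so that Lgr5- basal cells lay between the others; the call of Lgr5 between the basal populations was lost without either of Lgr5- basal arrays 1 and 2 or of Lgr5+ basal arrays 1 and 2 (adjusted p = 0.0509 to 0.116 in limma). The tetraspanin Tspan8 was lower in Lgr5- basal cells than in luminal cells (-1.44 ± 0.22, adjusted p = 0.000346 in limma), with levels of 8.26, 8.36 and 8.91 in Lgr5- basal cells, against 9.64, 10.05 and 10.18 in luminal cells, while Lgr5+ basal cells had 11.79, 11.56 and 12.01. Sfrp1 was at 8.52, 8.87 and 9.12 in Lgr5- basal cells, 11.71, 11.38 and 11.97 in Lgr5+ basal cells and 4.84, 4.56 and 4.58 in luminal cells. Which of the basal populations was set against luminal cells therefore changed the sign for Tspan8 and the size for Sfrp1. The comparisons of each basal population with luminal cells share the luminal arrays, and their values are given side by side without a measure of likeness.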

How the data were processed

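Total RNA of 9 sorted samples was amplified, labelled with biotin and hybridized to Illumina mouse whole-genome BeadChips, per the labels' protocols; GenomeStudio and limma are named in the submitters' processing notes, and no source used here gives their versions. The raw intensities that the authors deposited carried no background correction and no normalization. Each array's detection column is called a p-value in the file headers; it holds a deposited fraction that is high for bright probes, and was therefore subtracted from 1. A second deposited table held the authors' normalized log2 values, which differed from those computed here by at most 0.0284. Every value column belonged to a sample.

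Intensities were corrected with the normexp model, its negative controls inferred from the detection p, with an offset of 16, and quantile normalized (limma 3.58.1, R 4.3.3). A probe was tested if its detection p was below 0.01 on 3 or more arrays, which kept 17712 of 45281. A gene detected only in the group where it was high could therefore be tested. The brightest probe on average represented its gene. Another tested probe of Sema5a, Col6a1, Prlr, Bcl11b and Tpi1 differed by -0.12, 0.24, -0.11, 0.37 and 0.04 in that order, and did not pass. Of the resulting 12148 genes, 3920 had several tested probes and 901 used a probe that the authors set aside, in a column whose header says that it marks lack of expression or poor annotation. Probes were named through RefSeq symbols and synonyms, and 1760 tested genes kept the table's name. The linear model over the 9 arrays left 6 residual degrees of freedom, joined by 4.36 prior ones, and the moderated test was two-sided with Benjamini-Hochberg adjustment over all genes and a threshold of 0.05. The code of the model was run on simulated data with equal, independent noise for all genes and arrays and no pool or chip effect. That run cannot show how the test performs on these arrays. The number of arrays, 3 a group, limits the precision.

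The labels carry a pool number. Lgr5- basal and luminal arrays of the same pool deviated from their group means with r = 0.301, 0.105 and 0.361 for pools 1, 2 and 3. For different pools r was -0.283 to 0.0414, which is no independent reference, since deviations from a group mean cancel out within the group. Pool 3 alone lay on BeadChip 2, so its pool and chip cannot be told apart. A fit with the pool as a block was an alternative. Named are the 12 largest changes in each direction whose groups did not overlap, up to 5 members of each of 36 gene lists with the smallest p, landmark genes, and 6 genes in each direction between the basal populations. These lists and genes were chosen with earlier results of these data known, so they are no independent support. Of 838 list genes, 816 were on the array and 625 were tested. Promoter windows were taken from RefSeq, build GRCm38.p6; the files name no genome build, and probe positions are not reported here. Alternatives changed the background correction, normalization, filter, probe rule, block and arrays used.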

Additional observations from a re-analysis of the deposited data

Results flagged for a closer look

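For 20 named genes the difference from luminal cells was itself different between Lgr5- basal and Lgr5+ basal cells, as tested by the contrast between the basal populations in the same fit (limma, adjusted p under 0.05). Each value is that contrast, Lgr5- basal minus Lgr5+ basal, on the log2 scale. Lower in Lgr5- basal cells were Tspan8 (-3.27), Cfd (-3.02), Sfrp1 (-2.85), Cntn2 (-2.16), Ptprd (-2.07), Frmpd4 (-2.02), Lgr5 (-1.65), Col6a1 (-1.62), Col6a2 (-1.48) and Mcam (-1.04). Higher in Lgr5- basal cells were Lamp5 (2.91), Esm1 (2.56), Col9a1 (2.52), Tex36 (2.48), Spock3 (2.41), Aldh1a1 (2.24), Igfbp2 (1.54), Dcn (1.47), Sema3b (1.25) and Cd3e (0.88). Against luminal cells, Tspan8 differed by -1.44 in Lgr5- basal cells and by 1.83 in Lgr5+ basal cells, and both differences passed. The calls of Igfbp2, Lgr5, Lamp5, Esm1, Cfd, Cntn2 and Frmpd4 were each lost in 4 or more alternatives, among them leaving out Lgr5- basal array 1 (adjusted p = 0.103, 0.116, 0.115, 0.0889, 0.0944, 0.131 and 0.0533 in that order, limma) and leaving out Lgr5- basal array 2 (0.0938, 0.104, 0.115, 0.104, 0.0841, 0.084 and 0.084), and that of Esm1 with the pool as a block (0.0511). For Col6a1, Col6a2, Mcam, Sema3b and Cd3e this contrast was not followed through the alternatives, so how far their calls hold is not known. The 12 genes named for the size of this contrast were picked by it, so for them the values are a description.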

How the results depend on the processing

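Between Lgr5- basal and luminal cells, 5430 genes passed, 4584 to 5567 with 1 array left out, 5181 without luminal array 2, 3695 with median centring in place of quantile normalization, 5375 without background correction, 5429 on the authors' values and 5313 of 28894 genes with no filter. Only the count of lower genes with median centring, 1709 against 2762, and the count of 2-fold changes without background correction, 1591 against 3228, moved by over 1.5 times. List medians also depended on the filter: with none they were 3.653 for contractile, 1.957 for matrix, -1.368 for tight junction and -2.836 for hormone sensing genes. Of 203 named genes that passed, 185 passed in the same direction under each of 21 alternatives that tested them. Atp5j turned to 0.0157 when its tested probes were averaged. These probes disagreed in direction, at -0.4474 and 0.4788. With the pool as a replicate block 5971 genes passed, 5394 of them shared; Jag1, Pgk1, Mb and Greb1 passed with it and not without it, and between the basal populations Esm1 lost its call (adjusted p = 0.0511, limma). The count between the basal populations, 128, was 52 with median centring (63.5% higher, against 52.3%), 331 on BeadChip 1 alone, and 52 to 604 with 1 array left out: 59 without Lgr5+ basal array 1, 52 without Lgr5- basal array 1, 62 without Lgr5+ basal array 2, 52 without Lgr5- basal array 2 and 604 without Lgr5+ basal array 3. Dim signal limits the folds: probes not detected in the lower group give only a bound.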

Other observations

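Some genes outside the lists were detected in one layer only, and were chosen after their values were seen. On all 3 Lgr5- basal arrays and on no luminal array 643 genes (5.29%) were detected, and on all 3 luminal arrays and no Lgr5- basal array 291 (2.4%). On the basal side Mrvi1, a target of cGMP-dependent kinase in smooth muscle, was at least 40.2-fold higher, the ephrin receptor Ephb1 at least 24.7-fold, the calcium-dependent kinase Camk4 at least 24.5-fold, the cytoskeletal regulator Dpysl3 at least 25.6-fold, the collagen-binding proteoglycan fibromodulin (Fmod) at least 17.9-fold and the hormone gene secretin (Sct) at least 13.4-fold. Lower in Lgr5- basal cells, and detected only in luminal cells, were tryptophan hydroxylase 1 (Tph1), the enzyme that starts serotonin synthesis outside the brain, at least 16.8-fold, the claudin Cldn6 at least 15.5-fold, the mucosal chemokine Cxcl17 at least 15.4-fold, the interleukin 18 receptor Il18r1 at least 12.3-fold, the mucin Muc16 at least 9.77-fold and the cytokine Tnf at least 8.85-fold. All of these passed the test across all genes (limma, adjusted p under 0.05).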
